A study of Mus musculus with 6 samples.

Results

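The genes described here repair DNA breaks and the crosslinks that tie both DNA strands together: 32 genes of homologous recombination, of the break-sensing and checkpoint kinases and of the Fanconi anaemia pathway, chosen by symbol. Of these, 31 were measured among 18193 named genes, and Xrcc2 was not analysed here. Each gene was read on its brightest probe set, the set of array probes for it with the highest mean over the 6 arrays. The samples were R1 mouse embryonic stem cells of strain (129X1 x 129S1)F1, either Sirt1-/- (3 arrays) or Sirt1+/+ (3 arrays). Sirt1 encodes an NAD-dependent protein deacetylase. All were grown on gelatin in serum medium with LIF, the cytokine that keeps such cells undifferentiated; the labels name no feeder cells. Total RNA was hybridised to Affymetrix 3' expression arrays, and levels are log2 RMA values. The labels name a single source of knockout cells and a single source of wild-type cells, so the effect of Sirt1 and any other difference between those sources cannot be told apart. The labels do not say whether separate cultures gave the 3 arrays of each genotype. The p-values therefore rest on the spread of these samples alone, and that spread may be technical.

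A broken chromosome is bound by the Mre11a-Rad50-Nbn complex, which calls in the kinase Atm. Resection of the ends exposes single-stranded DNA, which activates the kinase Atr, and Brca1, Palb2 and Brca2 then promote error-free repair from the sister chromatid. At a crosslink the Fanconi core complex ubiquitinates Fancd2 and Fanci, which hand the lesion to nucleases and to recombination. Embryonic stem cells divide fast, spend much of the cycle in S phase and rely heavily on recombination. In human cells SIRT1 deacetylates NBN.

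In Sirt1-/- cells 11 of the 31 repair genes fell and 6 rose (limma, Benjamini-Hochberg adjusted p under 0.05 over all 18193 named genes, the threshold used throughout), and 14 did not pass. The falls included the sensor kinases Atr and Atm, Chek2, Brca2, Palb2, and the Fanconi genes Fancf, Fancm and Fanci. The rises were those of Nbn, Trp53bp1, Rad51b, Fanca, Fancb and Fancl. Few of the changes were large: 3 of the 31 genes differed by at least 1.5-fold (Fancf, Nbn and Atr), and none by 2-fold. Of all named genes 7.60% differed by at least 1.5-fold and 1.93% by at least 2-fold. Without regard to sign, the repair genes had a median log2 difference of 0.24, larger than the 0.14 of all named genes. For named genes brighter than the median named gene it was 0.19. The list's log2 changes ran from -0.84 to 0.64 with a median of -0.09, against -0.01 over all named genes.

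The genotypes differed widely in general, which sets the scale for those counts. Over all named genes 30.0% passed, 12.5% higher and 17.5% lower in Sirt1-/- cells, while 54.8% of the repair genes did. Brighter genes passed more often: 28 of the 31 repair genes were brighter than the median named gene (5.83), and of the 9096 named genes above it 48.0% passed, 21.5% higher and 26.5% lower. The arrays of the genotypes did not overlap for 23 of the 31 repair genes, against 43.8% of all named genes and 67.2% of those above the median level. When all probe sets of a gene were averaged in place of the brightest, 10 repair genes passed, 3 higher and 7 lower, or 32.3%, against 26.2% of named genes. These shares describe the list, which was not tested as a whole.

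**Figure D1:**
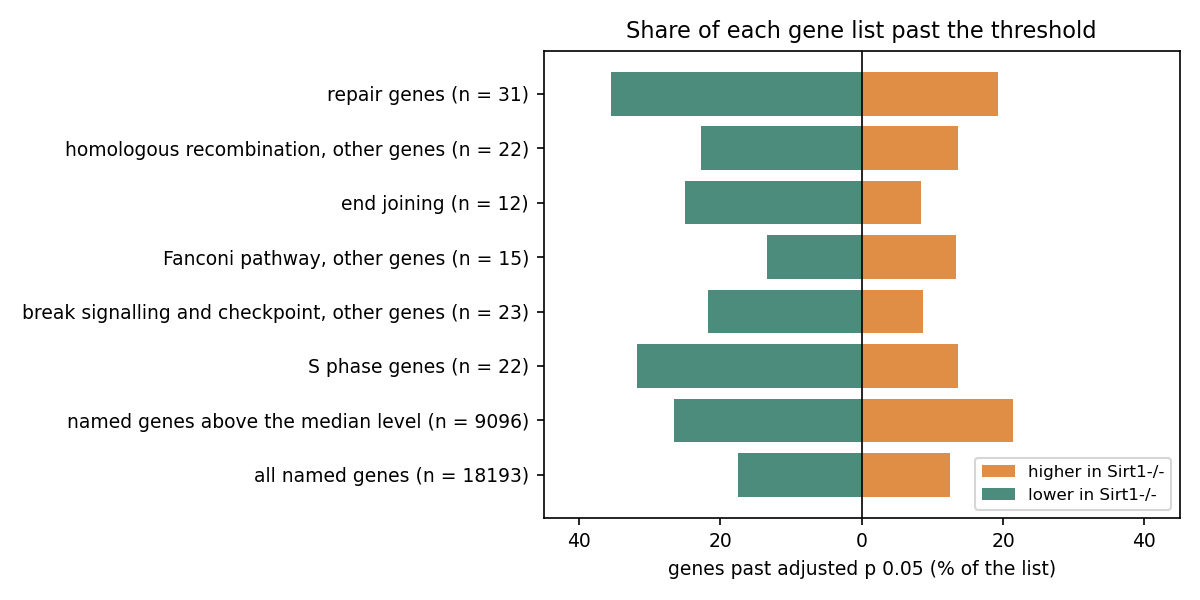
Share of each gene list that passed the threshold, in per cent, drawn to the right where the level was higher in Sirt1-/- cells and to the left where it was lower. The repair genes show 19.4% higher and 35.5% lower, beside 21.5% and 26.5% for named genes above the median level.

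Sirt1 itself, on its only probe set, read 8.02, 7.94 and 8.20 in Sirt1-/- cells, against 10.12, 10.13 and 10.23 in Sirt1+/+ cells. It was 4.31-fold lower (log2 change -2.11, SE 0.08; limma, adjusted p = 3.98e-05). Over the arrays alone, the two-sided exact permutation p was 0.1, the smallest that 3 against 3 allows. No source used here says whether this probe set lies in the deleted stretch. Array medians lay between 4.51 and 4.57, and Pearson's r across named genes was 0.997 to 0.998 within genotypes and 0.989 to 0.991 between them, where genes are not independent replicates. Of 8 pluripotent cell markers 5 fell and none rose (7 had an unadjusted p under 0.05). All 8 were brighter than the median named gene, and 26.5% of the named genes above it fell. The summed unlogged levels of the 8 markers were 25001 to 25805 in Sirt1-/- cells, against 31861 to 32118 in Sirt1+/+ cells. Nanog fell by 0.90, Tdgf1 by 0.65, Sall4 by 0.44, Sox2 by 0.31 and Zfp42 by 0.23, while Pou5f1 (0.10), Dppa4 (0.13) and Utf1 (-0.12) did not pass. Endoderm markers, 5 of 8 lower, had summed unlogged levels of 210 to 239 in Sirt1-/- cells, against 427 to 452 in Sirt1+/+ cells. Fibroblast markers, 2 of 8 lower, summed to 220 to 230 in Sirt1-/- cells, against 305 to 343 in Sirt1+/+ cells. Of these, Thy1 fell by 1.07 and Pdgfrb, which was brighter than the median named gene, by 0.50. Those 2 were the brightest of the 8, and a sum weighs the brightest genes most. The endoderm and fibroblast lists each held 1 marker brighter than the median named gene, and 17.5% of all named genes fell. The collagen genes Col1a1, Col1a2 and Col3a1 did not pass and averaged 3.44, 3.04 and 2.74 in Sirt1-/- cells, against 3.61, 3.34 and 2.59 in Sirt1+/+ cells, where the lower quartiles of the arrays were 3.16 to 3.24. The part of any of these cell types in the repair results was not tested. In bulk RNA, fewer cells of a type and less RNA per cell cannot be told apart.

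The genes that prepare and carry out strand exchange were lower where they changed. Brca2, a central mediator of recombination, read 8.35, 8.34 and 8.38 in Sirt1-/- cells, against 8.79, 8.88 and 8.91 in Sirt1+/+ cells. The genotypes were apart by far more than either group's spread, at a log2 change of -0.51 (SE 0.05; limma, adjusted p = 0.000686), or 1.42-fold lower. Palb2, which bridges Brca1 to Brca2, read 8.72, 8.69 and 8.75 in Sirt1-/- cells, against 9.15, 9.18 and 8.99 in Sirt1+/+ cells. Its fall was 1.31-fold (log2 change -0.39, SE 0.06; limma, adjusted p = 0.00441). Brca1, the ubiquitin ligase that starts this chain, read 10.04, 9.97 and 10.06 in Sirt1-/- cells, against 10.15, 10.17 and 10.15 in Sirt1+/+ cells. Those arrays did not overlap, but the log2 change of -0.13 did not pass (95% interval -0.25 to -0.02; limma, adjusted p = 0.0790). It passed with the intensity trend and robust variance (0.00441) and without the dimmest genes (0.0258). Its partner Bard1 (-0.08), the annealing factor Rad52 (-0.02) and the motor protein Rad54l (-0.09) did not pass either, and their 95% intervals left out changes larger than 0.31 in size.

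Within each array the Brca2 level minus the Brca1 level was -1.69, -1.64 and -1.69 in Sirt1-/- cells and -1.36, -1.29 and -1.24 in Sirt1+/+ cells. This difference, from distinct probe sets, carries no meaning as a level. Its shift of -0.37 is the change of Brca2 less that of Brca1, both given above. It gave p = 0.1 in an exact two-sided permutation test, as did the other 3 pairs compared below, and 0.1 after adjustment over the 4 pairs.

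**Figure D2:**
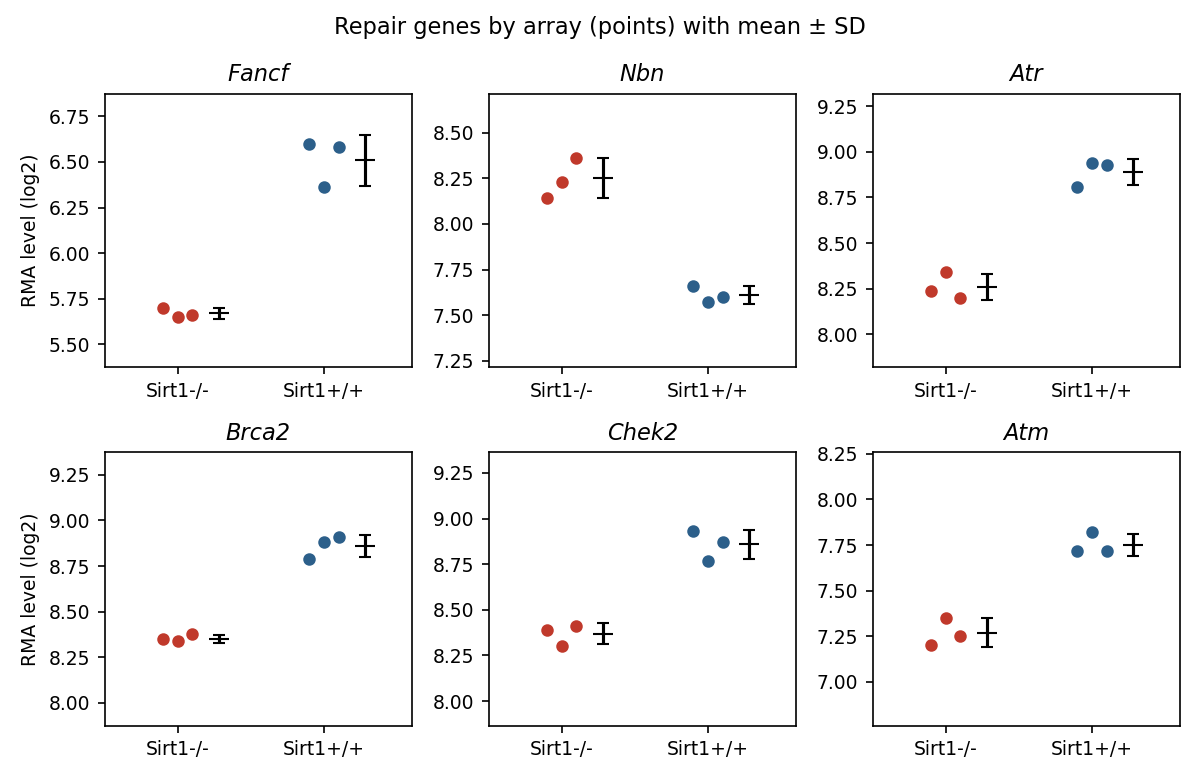
Log2 RMA level of 6 repair genes in each array (points), with Sirt1-/- left of Sirt1+/+, and the mean ± SD beside each group (n = 3). Every panel spans the same log2 range. In each panel the 3 Sirt1-/- arrays lie wholly above (Nbn) or wholly below (Fancf, Atr, Brca2, Chek2, Atm) the 3 Sirt1+/+ arrays.

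Rad51b, Rad51c, Rad51d and Xrcc3, related proteins that assist recombination in shared complexes, did not move together. Rad51b read 7.02, 7.10 and 6.93 in Sirt1-/- cells, against 6.72, 6.69 and 6.73 in Sirt1+/+ cells, and rose by 0.30 on the log2 scale (SE 0.06; limma, adjusted p = 0.00868). With its probe sets averaged the change was 0.20 and the call was lost (limma, adjusted p = 0.0756). Rad51c averaged 7.82 in both genotypes, with a 95% interval of -0.12 to 0.12 for its change. Xrcc3, which pairs with Rad51c, read 5.82, 6.12 and 6.06 in Sirt1-/- cells, against 6.24, 6.40 and 6.23 in Sirt1+/+ cells. Its log2 change of -0.29 missed the threshold (limma, adjusted p = 0.0594). It passed with the intensity trend in the variance (0.0314), without the dimmest genes (0.0295), with probe sets averaged (0.0362) and with the replicate number as a block (0.0438). Rad51d had overlapping arrays and a change of 0.16 that did not pass (limma, adjusted p = 0.151). Without knockout replicate 3 its change was 0.22 and passed (limma, adjusted p = 0.0487).

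The complex that first binds broken ends showed changes of opposite sign. Nbn, its adaptor that recruits Atm, read 8.14, 8.23 and 8.36 in Sirt1-/- cells, against 7.66, 7.57 and 7.60 in Sirt1+/+ cells. All knockout arrays were higher, by 0.64 on the log2 scale or 1.55-fold (SE 0.07; limma, adjusted p = 0.000863), the largest rise among the repair genes. Rad50, the ATPase of the complex, read 8.57, 8.60 and 8.62 in Sirt1-/- cells, against 8.85, 8.93 and 8.72 in Sirt1+/+ cells. It fell by 0.24 (SE 0.06; limma, adjusted p = 0.0323), a call that was lost on leaving out any array but wild-type replicate 3, and with probe sets averaged. The nuclease Mre11a averaged 8.52 ± 0.06 in Sirt1-/- and 8.54 ± 0.03 in Sirt1+/+ cells (SD, n = 3 each), with overlapping arrays. Nbn minus Rad50 within an array was -0.42, -0.37 and -0.26 in Sirt1-/- cells, against -1.18, -1.36 and -1.13 in Sirt1+/+ cells, a shift of 0.87 (exact permutation p = 0.1).

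Of the checkpoint kinases, 3 of 4 fell. All 4 were brighter than the median named gene, and 26.5% of the named genes above it fell. Atr, which answers single-stranded DNA at stalled forks and resected ends, read 8.24, 8.34 and 8.20 in Sirt1-/- cells, against 8.81, 8.94 and 8.93 in Sirt1+/+ cells. It was 1.55-fold lower (log2 change -0.63, SE 0.06; limma, adjusted p = 0.000613), but with probe sets averaged the change was -0.23 and did not pass (0.0826). Atm, the kinase of broken ends, read 7.20, 7.35 and 7.25 in Sirt1-/- cells, against 7.72, 7.82 and 7.72 in Sirt1+/+ cells, a log2 change of -0.48 (SE 0.06; limma, adjusted p = 0.00157). Its second probe set gave the same size of change, -0.48. Chek2, the effector kinase that Atm phosphorylates, read 8.39, 8.30 and 8.41 in Sirt1-/- cells and 8.93, 8.77 and 8.87 in Sirt1+/+ cells. The fall was 0.49 on the log2 scale (SE 0.06; limma, adjusted p = 0.00170). Chek1, the effector of Atr, stood apart from these: it read 9.88, 9.93 and 9.90 in Sirt1-/- cells, against 9.94, 9.94 and 9.90 in Sirt1+/+ cells. The 95% interval of its change was -0.13 to 0.08. Chek2 minus Chek1 within an array shifted by -0.46, with no overlap of genotypes (exact permutation p = 0.1). Other probe sets of Atr and Chek1 read otherwise, and their values stand with the probe sets.

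The adaptors that link break sensing to the kinases moved both ways. Topbp1, the activator of Atr, read 10.89, 10.90 and 10.90 in Sirt1-/- cells, against 11.16, 11.11 and 11.12 in Sirt1+/+ cells, a log2 change of -0.24 (SE 0.04; limma, adjusted p = 0.00703) that averaging probe sets ended (0.00). Rad17, which loads the checkpoint clamp, fell by 0.21 (SE 0.05; limma, adjusted p = 0.0170). It lost the call without knockout replicate 1, knockout replicate 2 or wild-type replicate 1. Trp53bp1, which limits resection and so favours end joining over recombination, read 9.88, 9.95 and 9.94 in Sirt1-/- cells, against 9.47, 9.63 and 9.57 in Sirt1+/+ cells. It rose by 0.37 (SE 0.06; limma, adjusted p = 0.00371), and by 0.16 with probe sets averaged (0.0467). Mdc1, which docks repair factors on phosphorylated H2ax, had non-overlapping arrays and a log2 change of -0.18 that did not pass (limma, adjusted p = 0.104), though it did with the intensity trend and robust variance (0.0116).

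**Figure D3:**
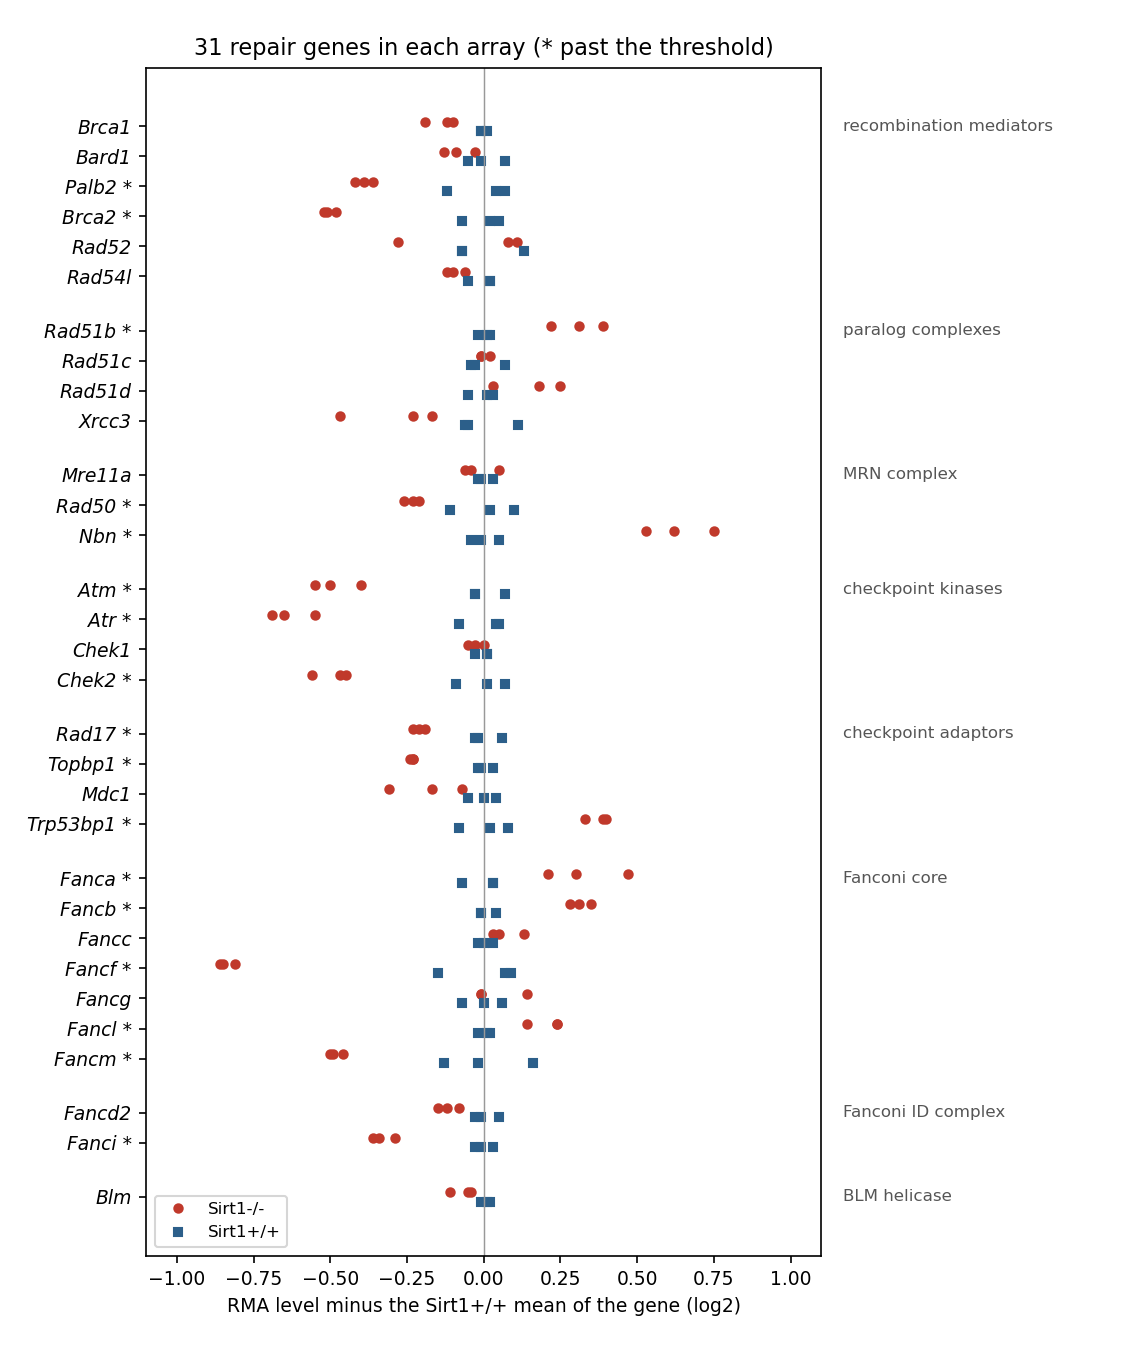
Log2 RMA level of the 31 repair genes in each array minus the Sirt1+/+ mean of the gene, grouped by role, with Sirt1-/- arrays as circles and Sirt1+/+ arrays as squares. Asterisks mark the 17 genes past the threshold. Circles lie on both sides of 0 among the Fanconi core genes and in the Mre11a-Rad50-Nbn complex, and well left of 0 for Atm, Atr and Chek2 but not for Chek1.

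Members of the Fanconi core complex, a multi-subunit ubiquitin ligase, changed in opposite directions: of 7 genes 3 rose and 2 fell. By mean level 6 of the 7 were brighter than the median named gene, and of named genes above it 21.5% rose and 26.5% fell. Fancf, a structural adaptor of the core, had the largest change of the repair genes on brightest probe sets. It read 5.70, 5.65 and 5.66 in Sirt1-/- cells, against 6.60, 6.36 and 6.58 in Sirt1+/+ cells, or 1.79-fold lower (log2 change -0.84, SE 0.07; limma, adjusted p = 0.000448). With probe sets averaged its change was -0.47 (limma, adjusted p = 0.00176), smaller in size than those of Nbn (0.64), Brca2 (-0.51), Chek2 (-0.49) and Atm (-0.48). Nbn, Brca2 and Chek2 have 1 probe set each, so averaging left their changes as they were. The knockout mean of Fancf, 5.67 on its brightest probe set, was dimmer than the median named gene. Fancm, the translocase that anchors the core on DNA, read 6.18, 6.17 and 6.21 in Sirt1-/- cells, against 6.65, 6.83 and 6.54 in Sirt1+/+ cells, a log2 change of -0.49 (SE 0.08; limma, adjusted p = 0.00459). Averaged over probe sets it was -0.15 and did not pass (limma, adjusted p = 0.0616). Fancb and Fancl, which share the catalytic module, both rose. For Fancb the values were 6.68, 6.71 and 6.75 in Sirt1-/- cells and 6.39, 6.39 and 6.44 in Sirt1+/+ cells, a rise of 0.31 (SE 0.05; limma, adjusted p = 0.00308), which averaging probe sets lowered to 0.19 without a call (0.116). Fancl, the ligase subunit, rose by 0.20 (SE 0.05; limma, adjusted p = 0.0244), and the call was lost on leaving out any array but knockout replicate 1. Fanca read 8.30, 8.21 and 8.47 in Sirt1-/- cells, against 7.93, 8.03 and 8.03 in Sirt1+/+ cells, a rise of 0.33 (SE 0.08; limma, adjusted p = 0.0197). Its call was lost without wild-type replicate 1. Fancc (0.07) and Fancg (0.04) had overlapping arrays and did not pass, and Fancg was dim, at 4.60 in Sirt1-/- and 4.56 in Sirt1+/+ cells.

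The genes of the pair of proteins that the core ubiquitinates were both lower in value on their brightest probe sets. Fanci read 8.09, 8.16 and 8.11 in Sirt1-/- cells, against 8.44, 8.48 and 8.42 in Sirt1+/+ cells, and fell by 0.33 (SE 0.05; limma, adjusted p = 0.00262), a call that averaging probe sets ended (0.03). Fancd2 averaged 8.01 ± 0.03 in Sirt1-/- and 8.12 ± 0.04 in Sirt1+/+ cells (SD, n = 3 each). Its log2 change of -0.12 did not pass (limma, adjusted p = 0.128), though the arrays did not overlap, and it passed without the dimmest genes (0.0496). With the probe sets of Fancd2 averaged the change was 0.08 and did not pass (limma, adjusted p = 0.4). Fanci minus Fancd2 shifted by -0.21 (exact permutation p = 0.1). Blm, the helicase that resolves recombination intermediates, averaged 9.17 ± 0.04 in Sirt1-/- and 9.24 ± 0.02 in Sirt1+/+ cells (SD, n = 3 each), a change that did not pass (limma, adjusted p = 0.329).

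A gene on these arrays may have several probe sets, which can read different transcript ends, so all 73 probe sets of the 31 genes were examined in a fit over 45037 probe sets, of which 19.8% passed. Of the 42 that were not the brightest of their gene, 7 were higher, 3 lower and 32 did not pass, and 14 lay above the median level. Those of called genes numbered 19: 12 had the sign of the brightest, 4 passed in its direction and 1 passed in the opposite one. Both probe sets of Atm fell by 0.48. Trp53bp1 rose by 0.37, 0.30 and 0.33 on its 3 brightest probe sets, all past the threshold, while the other 3, all dimmer, had -0.14, 0.12 and -0.01 and did not pass. Fancf fell by 0.84 and by 0.61 on its 2 brightest probe sets and changed by 0.04 on the dimmest. Atr was not uniform: its brightest probe set fell by 0.63, while another above the median level read 6.89, 6.86 and 6.92 in Sirt1-/- cells, against 6.91, 6.90 and 6.96 in Sirt1+/+ cells.

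Opposite signs were seen in other genes too. For Topbp1 the second probe set was higher by 0.24 and did not pass (limma, adjusted p = 0.0528), and for Fanci a dim one was higher by 0.40 (limma, adjusted p = 0.103). The averaged probe sets of Topbp1 and Fanci changed by 0.00 and 0.03. Fancm fell on its brightest probe set, had -0.30 on the next, and rose by 0.34 on the dimmest, with a mean level of 3.34. Chek1 had 0.02 on its second probe set, while a dimmer one rose by 0.38 (limma, adjusted p = 0.00756). For Rad51d a probe set nearly as bright as the one used rose by 0.42 (limma, adjusted p = 0.0206). Fancd2 fell by 0.29 on its second probe set (limma, adjusted p = 0.0252) and rose by 0.33 on another with a mean level of 3.96. The probe sets of Rad52 had nearly equal mean levels of 5.51 and 5.49, and the one not used rose by 0.33 (limma, adjusted p = 0.0435). Which transcripts each probe set reads was not tested.

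**Figure D4:**
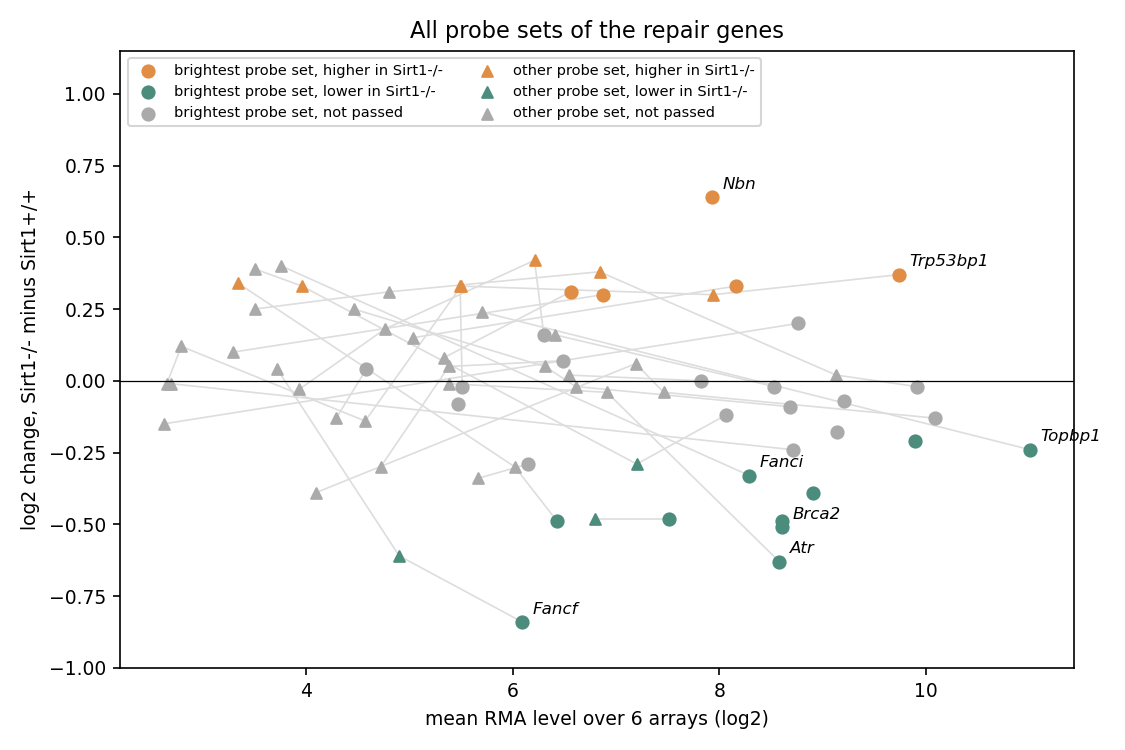
Log2 change of every probe set of the repair genes against its mean log2 RMA level over the 6 arrays, with the probe sets of a gene joined by a grey line. Circles are the brightest probe set of a gene, triangles the others, and colour gives the result in the fit over all probe sets. Most coloured triangles belong to the 7 probe sets that were higher in Sirt1-/- cells.

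The repair genes lie on 13 chromosomes, with 5 each on chromosomes 9 and 11. Their neighbours were read as the 10 measured genes on each side in the RefSeq gene order of GRCm38.p6 (18 in all for Brca2). Fanca, on chromosome 8, sat among risers: 8 of its 20 neighbours rose and the others did not pass, with a neighbour median of 0.17. On the whole chromosome 33.6% of 932 named genes rose and 10.5% fell, against 12.5% and 17.5% of all named genes. Tcf25 (0.97) and Def8 (0.46), each within 5 genes of Fanca, were among those that rose. Nbn rose between neighbours with a median of -0.12, of which 2 rose and 4 fell. Fancf fell between neighbours with a median of -0.01, of which 2 rose and 3 fell. Around Atr 1 neighbour rose and 7 fell, and around Trp53bp1, which rose, 2 rose and 7 fell. The part of the chromosome in the change of Fanca was not tested.

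**Figure D5:**
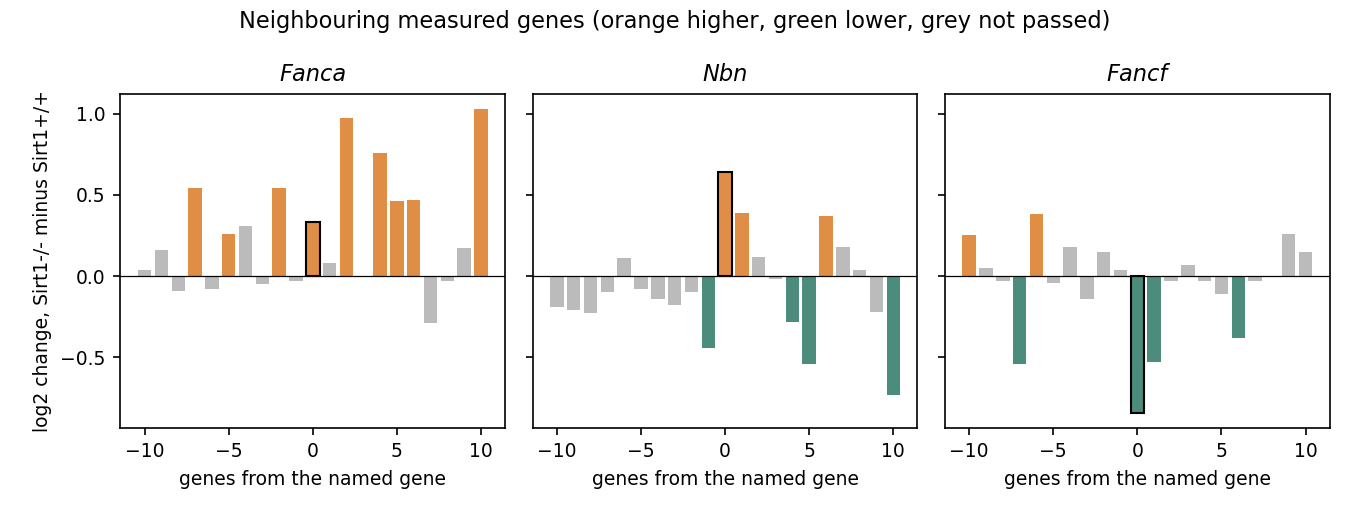
Log2 change of Fanca, Nbn and Fancf (outlined bars at 0) and of the 10 measured genes on each side, in gene order, with orange for a rise, green for a fall and grey where the threshold was not passed. Risers surround Fanca, with 8 of 20 neighbours, while most bars around Nbn and Fancf are grey.

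Promoter sequence, from 250 bases before to 50 after the start of each gene, was examined for motifs shared by cell cycle genes. RefSeq promoters of GRCm38.p6 matched 27 of the 31 genes, with 30 promoters in all; Fancd2, Nbn, Rad50 and Rad51d had no entry. Those of Fancf and Atr are shown as the matched genes with the largest changes. Capitals mark CCAAT, the box bound by NF-Y, and the Atr window holds none of the motifs searched. Fancf lies at chr7:51862218-51862517 on the minus strand and Atr at chr9:95857347-95857646 on the plus strand, each printed 5′ to 3′ on the strand of the gene.
Fancf: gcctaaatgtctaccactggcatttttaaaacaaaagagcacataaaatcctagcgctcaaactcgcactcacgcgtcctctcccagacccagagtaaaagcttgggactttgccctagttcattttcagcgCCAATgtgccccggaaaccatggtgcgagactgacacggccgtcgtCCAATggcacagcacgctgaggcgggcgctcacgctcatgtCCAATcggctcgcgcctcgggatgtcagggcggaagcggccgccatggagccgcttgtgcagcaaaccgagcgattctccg
Atr: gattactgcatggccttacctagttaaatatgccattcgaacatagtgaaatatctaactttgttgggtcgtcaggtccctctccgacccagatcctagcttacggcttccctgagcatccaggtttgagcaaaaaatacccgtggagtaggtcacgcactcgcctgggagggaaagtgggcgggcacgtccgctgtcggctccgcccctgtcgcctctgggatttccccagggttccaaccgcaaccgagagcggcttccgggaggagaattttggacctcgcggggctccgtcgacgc

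The motifs searched on both strands were CCAAT, the cell cycle homology region TTTGAA, and the E2F sites TTTCGCGC, TTTGGCGC and GGCGGGAA; none is contained in another. CCAAT stood in 17 of the 30 repair promoters (56.7%), against 37.4% of 32851 promoters of the same length. By direction it was in 4 of 6 promoters of genes that rose, 5 of 10 of those that fell and 8 of 14 of those that did not pass. These count promoters: Rad51b, Rad51c and Rad54l have 2 each. CCAAT was in both of Rad51b, which rose, in both of Rad54l and in neither of Rad51c. GGCGGGAA was in 5 repair promoters (16.7%), those of Chek1, Fancb, Fancm, Mdc1 and Rad51c, against 2.19% of all promoters and 3.18% of those of named genes. TTTCGCGC was in those of Topbp1 and Rad51c, against 0.323% of all promoters and 0.48% of those of named genes. TTTGGCGC was in none, against 0.514% and 0.79%. TTTGAA was in 2 repair promoters (6.67%), against 17.9% of all promoters and 13.4% of those of named genes. The median GC content was 59.7%, against 52.7% of all promoters and 58.3% of those of named genes. Genes with CCAAT or E2F letters thus stood among the risers, the fallers and those that did not pass.

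Other genes of the same pathways, 72 measured of 78 listed, gave 8 that rose and 15 that fell, or 31.9%, against 30.0% of all named genes. Of the 72, 63 were brighter than the median named gene. Among named genes above that level 48.0% passed, 21.5% higher and 26.5% lower. In recombination 3 of 22 rose and 5 fell. Rmi1, which acts in a complex with Blm, fell by 0.62 (SE 0.05; limma, adjusted p = 0.000286), with 8.51 ± 0.06 in Sirt1-/- and 9.13 ± 0.01 in Sirt1+/+ cells (SD, n = 3 each). The nuclease Mus81 fell by 0.51 and Smc5, of the Smc5-Smc6 complex, by 0.33. Rbbp8 was not analysed here.

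In end joining 1 of 12 genes rose and 3 fell, or 33.3%. Of all named genes 30.0% passed, and of those above the median level 48.0%. Polq, the polymerase of microhomology-mediated joining, rose by 0.87 (SE 0.21; limma, adjusted p = 0.0198), from dim probes: 4.95, 5.37 and 4.70 in Sirt1-/- cells, against 3.81, 4.23 and 4.36 in Sirt1+/+ cells. Lig3 fell by 0.59 and Lig4, the ligase of classical end joining, by 0.34. The other Fanconi genes gave 2 rises and 2 falls of 15, or 26.7%. Wdr48, cofactor of the deubiquitinase Usp1, rose by 0.38, and Fance, the core subunit that contacts Fancd2, by 0.24. The nuclease Dclre1a fell by 0.50 and Faap24, the partner of Fancm, by 0.26. Usp1 (-0.09; limma, adjusted p = 0.221) and the helicase Brip1 (-0.44; limma, adjusted p = 0.0926) did not pass.

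In break signalling 2 of 23 genes rose and 5 fell, or 30.4%. Of all named genes 30.0% passed, and of those above the median level 48.0%. The 2 that rose were Rad9a, by 0.29, and Babam1, by 0.24. H2ax, the histone that Atm and Atr phosphorylate at breaks, read 10.68, 10.81 and 10.68 in Sirt1-/- cells, against 11.35, 11.36 and 11.41 in Sirt1+/+ cells, a log2 change of -0.65 (SE 0.06; limma, adjusted p = 0.000399). Uimc1, which brings Brca1 to ubiquitin chains, fell by 0.55, and Tdp1, which frees trapped topoisomerase, by 0.56. Atrip, the partner of Atr, had a change of -0.34 that did not pass (limma, adjusted p = 0.0902).

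Many recombination genes peak in S phase, so S phase genes were set beside them. Of 22 measured, 3 rose and 7 fell, or 45.5%. By level 21 of the 22 were brighter than the median named gene, and 48.0% of the named genes above it passed. Their summed unlogged level was 49460 to 50460 in Sirt1-/- cells, against 49684 to 50075 in Sirt1+/+ cells, which overlap. The sum weighs the brightest genes most, and rises and falls can cancel in it, so the overlap does not show that single genes were unchanged. The replication licensing factor Cdt1 rose by 0.37 and Gins2, of the replicative helicase, by 0.64, while the cyclin Ccne2 fell by 0.50. Pcna averaged 12.47 in Sirt1-/- and 12.46 in Sirt1+/+ cells. Cell cycle phase was not measured.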

How the data were processed

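The deposited values are log2 levels of 45101 probe sets, which the authors produced by RMA; the submitters' processing notes name RMA and Partek 6.5. The log2 scale was read from the range of the values, and no source used here gives further settings. They were used as deposited. The 64 control probe sets and those with several symbols (932) or none (9160) were left out of the gene fit, leaving 34945 probe sets of 18193 genes by the platform annotation. The brightest probe set stood for a gene, with no filter. Older symbols of listed genes were matched through RefSeq.

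The comparison used limma 3.58.1 under R 4.3.3 (a linear model with moderated variances, two-sided, Sirt1-/- minus Sirt1+/+, Benjamini-Hochberg over all genes at 0.05), with 4 residual degrees of freedom before moderation. Precision is limited by having 3 arrays per genotype. Members and lists were chosen with earlier results of these data known. All 31 measured genes are named; of other lists, the 3 largest changes past the threshold and partners of the listed proteins. The genes of the plots by array and of neighbours, the neighbours and markers named, and Pcna were chosen after their values were seen.

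Alternatives were another quantile normalisation, centred arrays, removal of the dimmest 40%, averaged probe sets, a trend with robust variance, a replicate block, leaving out each array, adjusted p under 0.01, and all probe sets. Some items are not reported here. The fit was tested on simulated data. Recovery of the known differences there fell short of the level first required, and that requirement was then replaced by checks of bias, false calls and interval coverage, which were met. Differences as small as most of those here were often missed in that test. It changed 50 genes at each size tried among 18193, while 5462 genes passed in the data. The adjusted threshold was therefore stricter there, and its shares of recovery may not carry over. A gene that did not pass is still not shown to be unchanged.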

Additional observations from a re-analysis of the deposited data

How the results depend on the processing

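Of the 17 calls, 7 (Brca2, Palb2, Nbn, Atm, Chek2, Fancf and Trp53bp1) held under every alternative but single other probe sets. Of these, Brca2, Palb2, Nbn and Chek2 have 1 probe set each, so averaging probe sets could not change their values. Averaging took Fancf to -0.47 and Trp53bp1 to 0.16. At an adjusted p under 0.01, 13 calls held. Averaging probe sets moved the result most: 10 repair genes passed, 3 higher and 7 lower, Atr (-0.23), Fancm (-0.15), Rad51b (0.20), Fancb (0.19), Rad50 (-0.12) and Fancl (0.03) lost the call, Xrcc3 gained it, and Fanci (0.03) and Topbp1 (0.00) changed sign. The cause was not tested. Single other probe sets had the opposite sign for Rad52 (0.33), Chek1 (0.38), Fancd2 (0.33), Fancf (0.04), Fanci (0.40), Fancl (-0.15), Fancm (0.34), Topbp1 (0.24) and Trp53bp1 (-0.14 and -0.01). Leaving out 1 array gave 13 to 16 called repair genes, 4 to 6 higher and 9 to 11 lower, with a median of -0.113 to -0.0914. For the other pathway genes it gave 15 to 20 calls, 5 to 7 higher and 10 to 14 lower; 15 came without wild-type replicate 1, and 5 higher without wild-type replicate 1 or 2. With a trend and robust variance 37 other pathway genes passed, 14 higher and 23 lower, and 20 repair genes, with Brca1, Xrcc3 and Mdc1 gained; leaving out the dimmest genes gained Brca1, Xrcc3 and Fancd2. At an adjusted p under 0.01 there were 11 other pathway genes (3 higher, 8 lower) and 3356 named genes (1347 higher, 2009 lower), because of the stricter threshold. The remaining scalings and filters gave 17 to 20 called repair genes. In the fit over all probe sets the brightest ones of Rad50 (limma, adjusted p = 0.0572) and Fancl (0.0539) lost the call. Of values of genes not called on either side, 28 changed sign.

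The numbers 1 to 3 of the samples are not stated to pair them, and across genes the departures from the group mean of arrays with the same number had r of 0.0515, -0.0865 and 0.198. With the replicate block 15 repair genes passed, 5 higher and 10 lower, with 4700 named genes and 20 other pathway genes: Rad50, Fancl and Rad17 lost the call and Xrcc3 gained it. The Sirt1 change stayed between -2.18 and -2.05 in all settings.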
